A study of Mus musculus with 20 samples.

Results

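The genes described here are 6 members of the acid-sensing and mechanosensitive channel families, Asic1, Asic2, Asic3, Piezo1, Piezo2 and Stoml3, out of 37620 genes listed in the expression table of sorted Trpv1 sensory neurons. They were chosen by name and found by Ensembl identifier, since the annotation of that time calls the first 3 Accn2, Accn1 and Accn3 and both PIEZO genes Fam38a and Fam38b. RNA was measured by bulk RNA-seq in 20 libraries in 4 groups of 5, male lumbar, male sacral, female lumbar and female sacral, where lumbar means the dorsal root ganglia (DRG) L4-5 and sacral means L6-S1. Each of 10 donors, 5 male and 5 female, gave both a lumbar and a sacral library. All donors were adults of 6 to 8 weeks and homozygous for Trpv1tm2Bbm, a reporter allele at the Trpv1 locus that adds alkaline phosphatase and a nuclear β-galactosidase to cells that use the locus, and no untreated, wild-type or unsorted group enters these comparisons. Ganglion cells were incubated with DDAOG, a substrate that β-galactosidase turns into the far-red dye DDAO, and the brightest DDAO-positive cells were sorted, so brightness depended on the Trpv1 locus itself. Each donor label carries 2 animal numbers where the study counts single mice, and whether cells of several animals were pooled is not stated.

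Sensory endings detect acid and force largely through ion channels. Acid-sensing ion channels (ASICs) are sodium channels of the degenerin and epithelial sodium channel family that open when protons bind outside the cell, and their subunits assemble as trimers, so the mix of subunits in a neuron sets how the channel responds. PIEZO channels open when the membrane is stretched or indented. Piezo2 is the main channel of light touch and of the sense of limb position and is used by afferents of hollow organs such as the bladder, whereas Piezo1 is best known from endothelial cells, red blood cells and epithelia. Stoml3, a stomatin-like membrane protein, raises the sensitivity of mechanically gated currents in touch receptors.

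Most of the 6 genes were deeply covered. Reads on genes, worked back from the table, numbered 43995267 to 66595485 per library, and 20720 to 22507 genes had a value in a library. Trpv1, the gene that defines the sorted cells, had 1222 to 8345 reads in every library. Other cells were also present in the RNA. The summed level of 8 Schwann cell markers was 723 to 1604 RPKM (reads for each kilobase of a gene, corrected for library size) in lumbar and 703 to 1186 RPKM in sacral libraries, and that of 8 satellite glial markers was 633 to 1715 and 292 to 691 RPKM, with the lumbar library of the pair higher in 10 of 10 donors for each list.

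Piezo2 was the most abundant of the 6 genes and Stoml3 the least. On the log2 RPKM scale, which is per kilobase and so can be compared between genes, the mean over donors was 4.04 ± 0.41 for Piezo2, 3.11 ± 0.38 for Asic2, 2.63 ± 0.41 for Asic3, 2.25 ± 0.27 for Asic1 and -0.93 ± 0.53 for Piezo1 (SD, n = 10 each). Stoml3 had a value at both levels in 7 donors, with a mean level of -3.12 ± 1.02 (SD, n = 7). Each neighbour in this order differed from the next in the mean over donors, and the order was set by these same means. Piezo2 exceeded Asic2 in 10 of 10 donors by 0.93 ± 0.13 (SD), Asic2 exceeded Asic3 in 9 by 0.48 ± 0.29, and Asic3 exceeded Asic1 in 8 by 0.39 ± 0.31. The exact sign-flip permutation tests over donors (two-sided) gave adjusted p values over the 5 neighbouring pairs of 0.0049, 0.0065 and 0.0098. Asic1 lay 3.18 ± 0.69 above Piezo1 in all 10 donors (exact permutation test, adjusted p = 0.0049), a gap of several fold. Piezo1 lay 2.32 ± 0.78 above Stoml3 in all 7 donors with both values (exact permutation test, adjusted p = 0.0156, the smallest that 7 donors allow). In lumbar libraries alone Asic2 and Asic3 were not told apart (0.11, adjusted p = 0.33, exact permutation test).

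**Figure D1:**
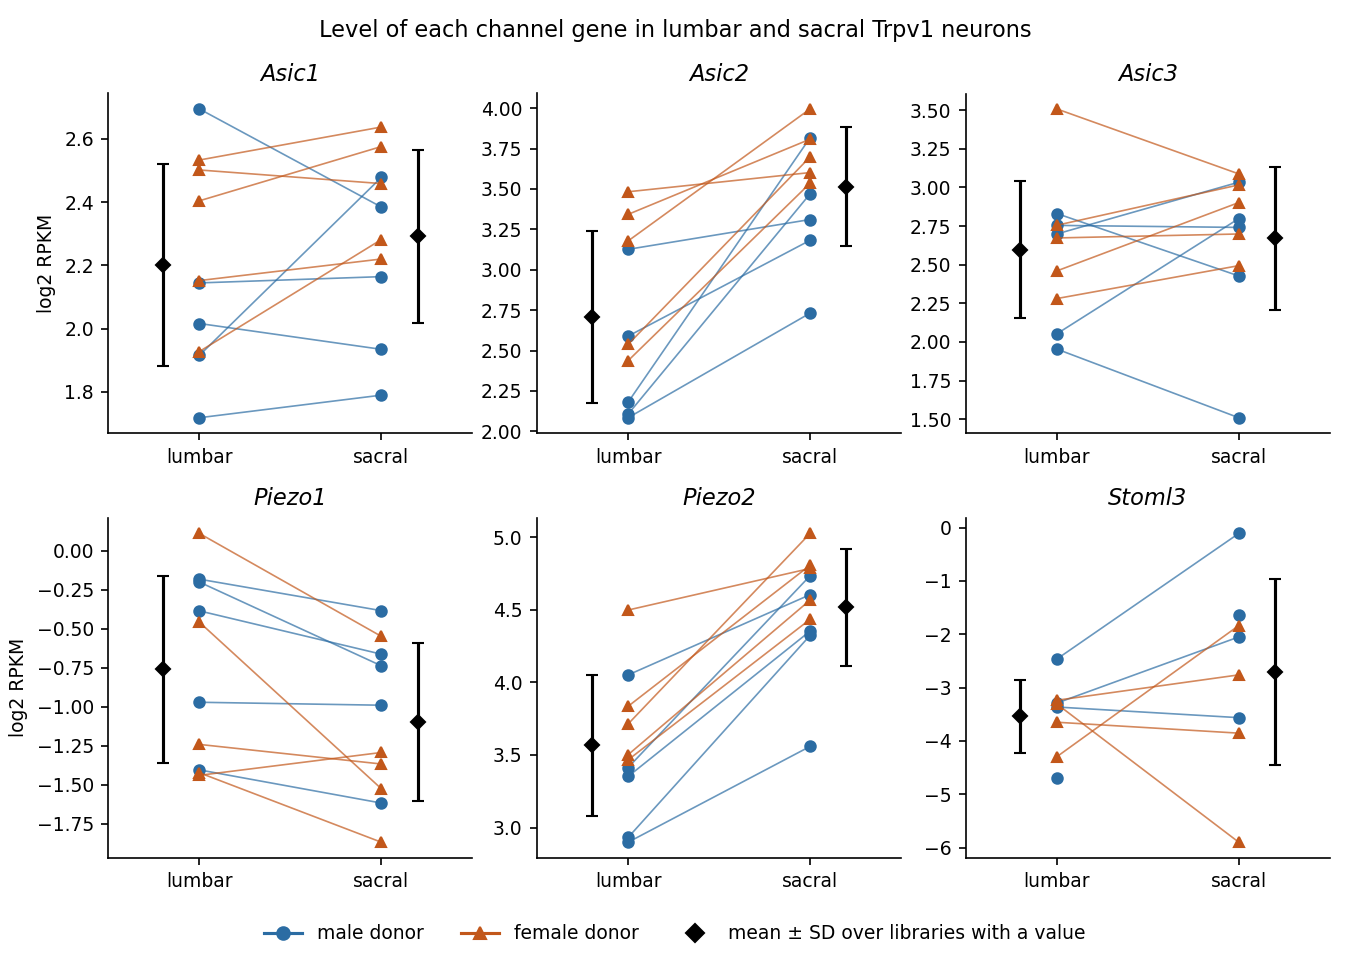
Level of each gene (log2 RPKM, y axis, a separate scale for each gene) in the lumbar and sacral library of each donor, joined by a line, with the mean ± SD over libraries with a value beside them. All 10 lines rise from lumbar to sacral for Asic2 and Piezo2, while lines of Asic1, Asic3 and Stoml3 run both ways.

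The main comparison asked which channel genes differ between the lumbar and sacral libraries of the same donor. Piezo2 and Asic2 were higher in sacral libraries, by 1.94-fold and 1.75-fold, in 10 of 10 donors each. Of all genes tested, 19.9% had the same sign in all donors. Asic1, Asic3 and Piezo1 did not pass the test, and Stoml3 was below the filter on low values. So 2 of the 5 members tested were called, against 45.6% of all 16304 genes tested, 30.3% called higher in sacral and 15.3% called higher in lumbar libraries. The count of members is therefore close to the background, and it says nothing particular about them. In sorted bulk RNA a lower value can come from fewer cells that express a gene or from less RNA per cell. It can also come from more RNA of other cells in the library, such as the glial RNA described below. These cannot be told apart.

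Piezo2 (ENSMUSG00000041482, chromosome 18, 63169867 to 63546837 of NCBIM37, minus strand) was the deepest measured member, with 3877 to 28583 reads per library. Its level ran from 2.90 to 4.50 with a median of 3.48 log2 RPKM in the 10 lumbar libraries and from 3.56 to 5.03 with a median of 4.59 in the 10 sacral ones. The groups overlapped through a single low sacral library, that of male donor 2, and a high lumbar library, that of female donor 2, and within each donor the sacral library was still the higher. The log2 change, lumbar minus sacral, was -0.95 (SE 0.14, 95% CI -1.25 to -0.65, limma adjusted p = 3.5e-05), and donors ranged from -1.39 to -0.29.

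Asic2 (ENSMUSG00000020704, chromosome 11, 80693671 to 81781959, minus strand) encodes a subunit that shapes the gating of channels it forms with other ASICs. It had 721 to 4580 reads per library. Lumbar libraries held 2.08 to 3.48 log2 RPKM with a median of 2.56, and sacral libraries 2.73 to 3.996 with a median of 3.57. As for Piezo2, the lowest sacral library came from male donor 2 and the highest lumbar library from female donor 2. The log2 change was -0.81 (SE 0.15, 95% CI -1.12 to -0.50, limma adjusted p = 0.00019), and donors ranged from -1.64 to -0.12. The gene spans over a megabase, and that span overlaps 1 annotated gene on its own strand and 5 on the other. Whether their exons overlap was not examined. The sources do not state that reads were counted by strand, so its value may hold reads of those genes where exons overlap.

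The other ASIC subunits did not pass the test. Asic1 (ENSMUSG00000023017, chromosome 15, 99501149 to 99531561, plus strand), the subunit that forms channels of high proton sensitivity on its own, held 1.72 to 2.69 log2 RPKM with a median of 2.15 in lumbar libraries and 1.79 to 2.64 with a median of 2.33 in sacral ones. The log2 change was -0.09 (SE 0.11, 95% CI -0.32 to 0.14, limma adjusted p = 0.52). Sacral was higher in 7 donors and lumbar in 3, with the groups overlapping over nearly their whole range. Asic3 (ENSMUSG00000038276, chromosome 5, 23919269 to 23923652, plus strand), the subunit most typical of sensory neurons, held 1.95 to 3.51 with a median of 2.69 in lumbar and 1.51 to 3.09 with a median of 2.77 in sacral libraries. Its change was -0.07 (SE 0.16, 95% CI -0.41 to 0.26, limma adjusted p = 0.73), sacral being higher in 6 donors. These intervals leave room for changes of up to 0.32 and 0.41 on the log2 scale toward sacral, and the signs of both changes turned under quantile scaling (0.031 and 0.072) and TMM scaling (0.011 and 0.028).

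Piezo1 (ENSMUSG00000014444, chromosome 8, 125005598 to 125075229, minus strand) was low, with 141 to 507 reads per library. It held -1.44 to 0.11 log2 RPKM with a median of -0.72 in lumbar and -1.87 to -0.39 with a median of -1.14 in sacral libraries. The lumbar library was the higher in 9 of 10 donors, and the groups overlapped widely because donors differed more from each other than the levels did. The log2 change was 0.34 (SE 0.24, 95% CI -0.15 to 0.83, limma adjusted p = 0.25). An exact sign-flip permutation test over the 10 donors alone, not adjusted for the number of genes, gave p = 0.0098. The span of Piezo1 overlaps U6 on its own strand and Gm20388 and Ctu2 on the other, so its few reads are uncertain in the same way as those of Asic2.

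Stoml3 (ENSMUSG00000027744, chromosome 3, 53292649 to 53312424, plus strand) was close to the limit of detection. It had no read in 4 libraries, which allows up to 3 reads in each, and at most 15 reads in any lumbar library. Among sacral libraries it reached 111 reads in male donor 2, 37 in female donor 3, 33 in male donor 3 and 32 in male donor 4, and had 18 or fewer in the other 6. The sum was 70 reads over the 10 lumbar and 249 over the 10 sacral libraries, of which 111 came from male donor 2. With the filter on low values removed, the fitted log2 change was -0.80 (SE 0.56, 95% CI -1.97 to 0.37, limma adjusted p = 0.30), and sacral was higher in 4 of 7 donors with both values. A level difference of Stoml3 was not detectable at this depth.

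**Figure D2:**
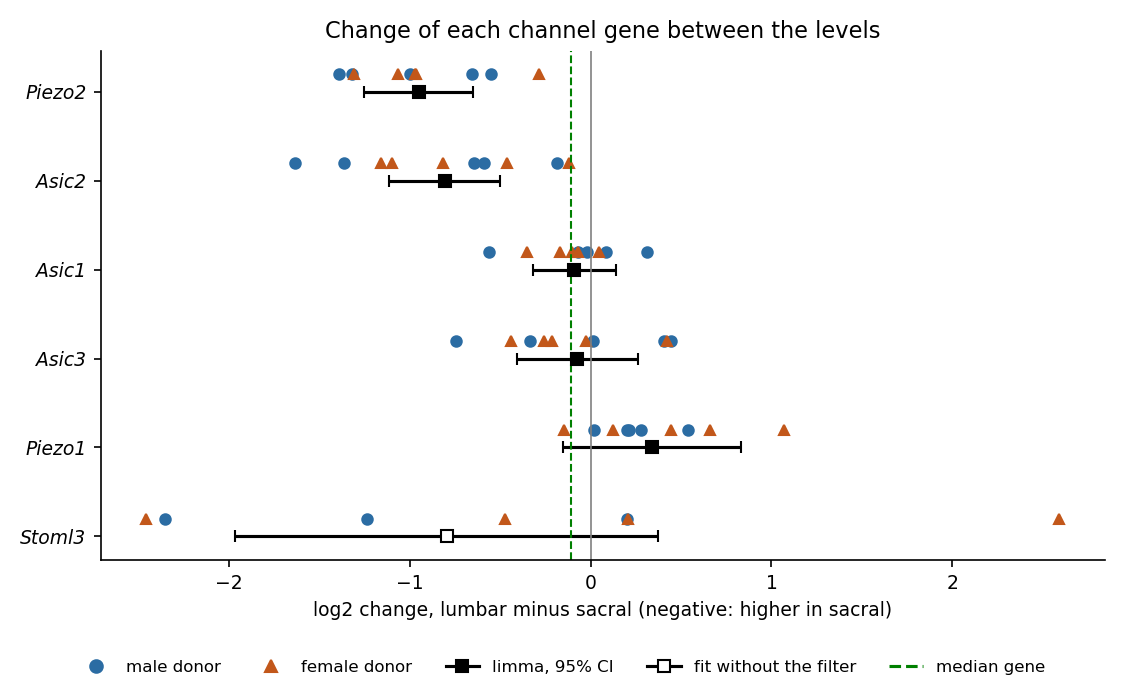
Log2 change, lumbar minus sacral (x axis), for each gene, with a point per donor above and the limma estimate with its 95% confidence interval below, an open square marking the fit without the filter. The dashed line is the median change of all genes tested (-0.11), and the intervals of Piezo2 and Asic2 lie wholly to its left.

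The ratio of a pair of genes within a library does not depend on how libraries were scaled, so the members were also compared with each other. Of the 15 pairs of members, 7 differed in their lumbar minus sacral change (exact sign-flip permutation tests over donors, two-sided, Benjamini-Hochberg over the pairs). The share of such pairs among all genes was not computed, so this count says nothing particular about the members. Asic2 shifted toward sacral relative to Asic3 in 10 of 10 donors, the change of Asic2 minus that of Asic3 being -0.73 ± 0.23 (SD, n = 10, exact permutation test, adjusted p = 0.0098). The within-library difference of levels, Asic2 minus Asic3, was -0.59 to 0.67 log2 units with a median of 0.13 in lumbar libraries, and 0.44 to 1.22 with a median of 0.93 in sacral ones. In lumbar libraries either gene could be the higher, while Asic2 was higher in every sacral library.

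Piezo2 shifted toward sacral relative to Asic3 by 0.88 ± 0.20 and relative to Piezo1 by 1.29 ± 0.62 (10 of 10 donors each, exact permutation test, adjusted p = 0.0098 for both). Asic1 minus Asic2 gave a difference of changes of 0.72 ± 0.64 (9 of 10 donors, exact permutation test, adjusted p = 0.021), and Asic1 minus Piezo2 gave 0.86 ± 0.52 (9 of 10 donors, exact permutation test, adjusted p = 0.012). Asic2 minus Piezo1 was -1.15 ± 0.77 (9 of 10 donors, exact permutation test, adjusted p = 0.012). The last pair called was Asic1 minus Piezo1 with -0.43 ± 0.38 (8 of 10 donors, exact permutation test, adjusted p = 0.0195), which was lost when libraries were not paired by donor (adjusted p = 0.32).

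Asic2 and Piezo2 were not told apart in their change, at 0.14 ± 0.29 for Asic2 minus Piezo2 (SD, n = 10, exact permutation test, adjusted p = 0.25). Asic1 and Asic3 were not either, at -0.02 ± 0.54 (exact permutation test, adjusted p = 0.92). Within a library Piezo2 lay above Asic2 by 0.49 to 1.23 log2 units in lumbar and by 0.83 to 1.29 in sacral libraries. No pair with Stoml3 was called, and those pairs rest on 7 donors.

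Expressed as a share of the summed RPKM of the 3 ASIC genes, Asic2 made up 29.0 to 49.9% (median 37.0%) of ASIC RNA in lumbar libraries and 43.3 to 55.2% (median 50.7%) in sacral ones. The Asic2 share was larger in the sacral library of all 10 donors. The Asic3 share moved the other way in all 10, from 31.2 to 43.7% (median 34.4%) in lumbar to 21.99 to 35.5% (median 27.3%) in sacral libraries. Asic1 supplied the rest, with a median of 27.7% in lumbar and 21.2% in sacral libraries, the lumbar share being larger in 7 donors. Of the summed RPKM of both PIEZO genes, Piezo2 held 89.4 to 98.4% in lumbar and 93.9 to 99.2% in sacral libraries. These shares are of RNA per kilobase and say nothing of protein, and they restate the within-library comparison in other units.

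**Figure D3:**
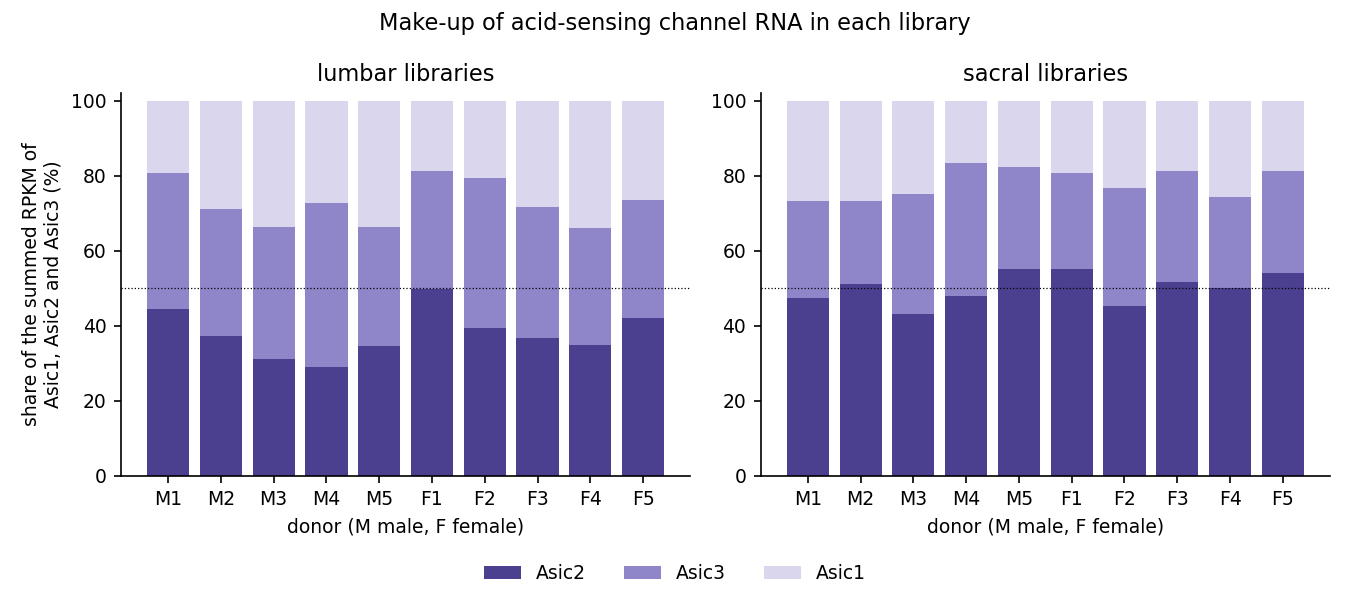
Share of the summed RPKM of Asic1, Asic2 and Asic3 (y axis, percent) taken by each gene in the lumbar and the sacral library of each donor (x axis). Asic2 takes a larger share in the sacral library of all 10 donors, with medians of 37.0% and 50.7%.

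Markers of the sorted neurons and of other cells differed between the levels as well. Of 6 Trpv1 nociceptor markers 4 were called higher in sacral libraries, beside 30.3% of all genes tested, and none higher in lumbar ones, beside 15.3%. Under TMM scaling of the deposited values or of the recovered reads 4 were called higher in sacral and 1 higher in lumbar libraries. With scaling to total reads 5 were called higher in sacral libraries, and with the glial covariate described below none was called. The mean of the 6 markers changed by -0.53 on the log2 scale, negative in 10 of 10 donors. It averages markers that differ, with Trpv1 (-0.96) and Scn10a (-0.94) close to Piezo2 (-0.95), while Tac1 (-0.095) and Calca (0.16) did not pass the test, so a ratio to this mean depends on which markers it holds. Set against that mean, an alternative chosen after seeing the data, Piezo2 changed by -0.42 ± 0.26 (SD, n = 10, negative in 10 of 10 donors, exact sign-flip permutation test, unadjusted p = 0.0020). Asic2 changed by -0.27 ± 0.35 in the same ratio, negative in 7 of 10 donors (exact permutation test, unadjusted p = 0.045). Asic3 moved to the other side, at 0.46 ± 0.27 and positive in all 10 donors (exact permutation test, unadjusted p = 0.0020), as did Asic1 at 0.44 ± 0.41 (exact permutation test, unadjusted p = 0.0098) and Piezo1 at 0.87 ± 0.47 (exact permutation test, unadjusted p = 0.0039).

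Glial RNA ran against Asic2 and Piezo2. The mean of the 16 Schwann and satellite glial markers was 4.38 to 5.62 log2 RPKM (median 5.02) in lumbar and 3.38 to 4.62 (median 3.94) in sacral libraries, higher in the lumbar library of 10 of 10 donors. Among them 7 of 8 Schwann and 8 of 8 satellite glial markers were called higher in lumbar libraries, beside 15.3% of all genes tested. With this mean as a covariate neither gene was called, at -0.14 for Asic2 (limma adjusted p = 0.87) and -0.23 for Piezo2 (adjusted p = 0.74), and the sign of Piezo1 turned to -0.80 (adjusted p = 0.37). In that fit 151 of 16304 genes were called in all, and in no donor was the glial mean higher in the sacral library, so glial RNA and level cannot be told apart by this design. Over the other limma fits the adjusted p ran from 2.0e-06 to 0.013 for Asic2 and from 7.0e-07 to 0.0058 for Piezo2.

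A relation to the glial mean was also seen among libraries of a single level. Asic2 was lower where the glial mean was higher, over the 10 lumbar libraries (Pearson r = -0.90, Spearman rho = -0.87, permutation p = 0.00058 and 0.0020, adjusted over 10 relations 0.0045 and 0.0067) and over the 10 sacral ones (r = -0.69, rho = -0.67, permutation p = 0.023 and 0.039, adjusted 0.038 and 0.065). Leaving out the 2 libraries with the most extreme glial means gave r = -0.91 and -0.61. Piezo2 behaved alike, with r = -0.88 and rho = -0.84 in lumbar (permutation p = 0.00090 and 0.0037, adjusted 0.0045 and 0.0091) and r = -0.75 and rho = -0.87 in sacral libraries (permutation p = 0.0034 and 0.0020, adjusted 0.0086 and 0.0067), and -0.96 and -0.69 without the 2 extremes. Piezo1 rose with the glial mean, r = 0.82 and rho = 0.88 in lumbar (permutation p = 0.0053 and 0.0014, adjusted 0.011 and 0.0067) and r = 0.91 and rho = 0.79 in sacral libraries (permutation p = 0.0014 and 0.0093, adjusted 0.0046 and 0.019), and 0.78 and 0.89 without the extremes. Asic1 and Asic3 had negative r of -0.41 to -0.68 in the same relations. For Asic3 r was -0.68 in lumbar libraries (permutation p adjusted 0.038, for rho 0.076) and -0.41 in sacral ones (adjusted 0.25 and 0.39). Without the 2 extremes it was -0.61 and -0.36. For Asic1 r was -0.47 in lumbar (permutation p adjusted 0.19, for rho 0.33) and -0.67 in sacral libraries (adjusted 0.044 and 0.068). Without the 2 extremes it was -0.072 and -0.26, so the relation of Asic1 rests on those libraries. The share of all genes with such a relation was not computed. Both axes come from the same library and share its scaling. Libraries of both sexes were pooled and permuted together, so a sex difference on either axis enters these values. For Piezo1, markers of other cells stood beside these values. The summed level of 8 endothelial markers was 11.9 to 81.5 RPKM (median 39.5) in lumbar and 9.47 to 42.0 RPKM (median 24.3) in sacral libraries. It was higher in lumbar in 10 of 10 donors. The sum of red blood cell markers was also higher in lumbar in 10 of 10 donors, and that of macrophage markers in 9. For fibroblast markers the sum was higher in lumbar in only 4 donors, though 4 of 6 markers were called higher in lumbar libraries. The part of any of these cells in the Piezo1 value was not tested.

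**Figure D4:**
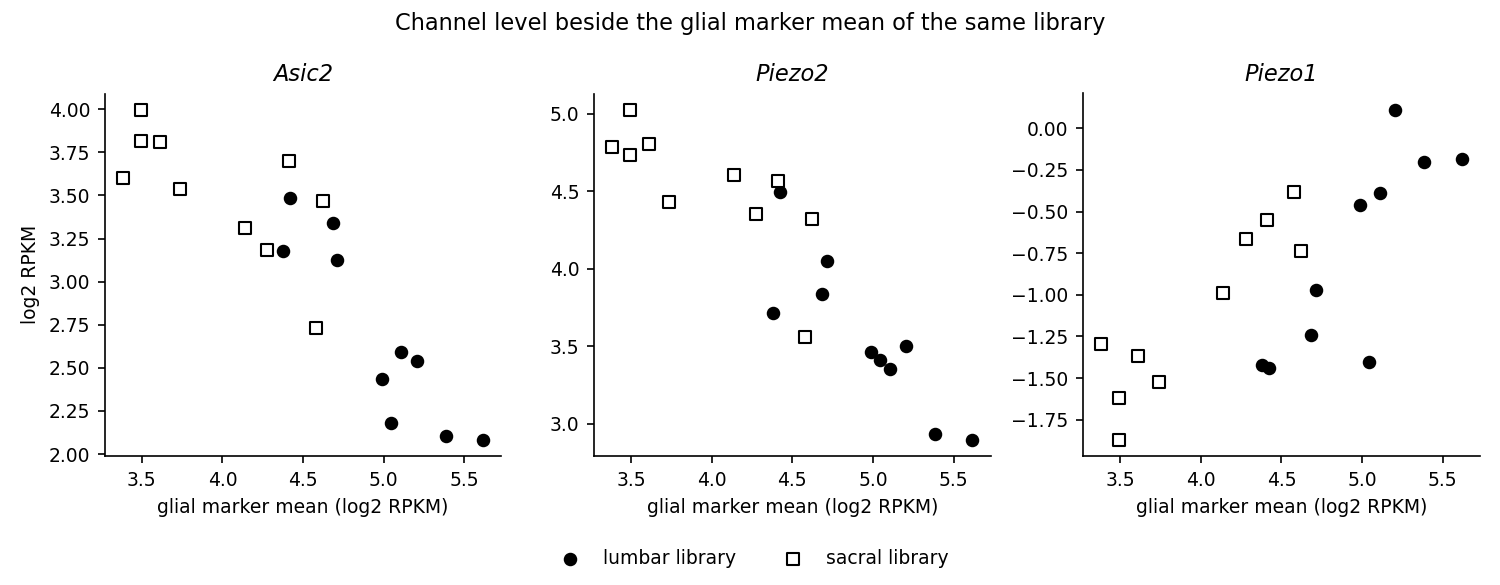
Level of Asic2, Piezo2 and Piezo1 (log2 RPKM, y axes) against the mean of 16 glial markers (log2 RPKM, x axis), with a point per library, filled for lumbar and open for sacral. Asic2 and Piezo2 fall and Piezo1 rises with the glial mean within either level, and the lumbar points lie further right.

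The study also compared the sexes at each level. No member was called in either comparison, where 0.0427% of 16386 genes were called in lumbar and 0.0368% of 16321 in sacral libraries. Asic2 came nearest. Its lumbar values were 3.34, 3.48, 2.54, 2.44 and 3.18 log2 RPKM in the 5 females and 3.13, 2.08, 2.59, 2.11 and 2.18 in the 5 males, and the groups overlapped. The difference, female minus male, was 0.58 (SE 0.23, limma adjusted p = 0.36). In sacral libraries Asic2 was 3.81, 3.60, 3.70, 3.54 and 3.996 in females and 3.31, 2.73, 3.18, 3.47 and 3.82 in males, a difference of 0.43 (SE 0.23, limma adjusted p = 0.64). Piezo2 was likewise 0.47 (SE 0.22, limma adjusted p = 0.43) higher in female than male lumbar libraries and 0.41 (SE 0.22, adjusted p = 0.65) in sacral ones. The glial marker mean of lumbar libraries was 4.38 to 5.21 in females and 4.71 to 5.62 in males. With this mean as a covariate the differences fell to 0.28 in lumbar and 0.087 in sacral libraries for Asic2 and to 0.15 and 0.045 for Piezo2, and none was called in that fit either.

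Whether the level difference depends on sex was tested as an interaction, and no member was called. The sex difference in lumbar minus that in sacral libraries was 0.15 (SE 0.30) for Asic2, 0.06 (SE 0.29) for Piezo2 and 0.18 (SE 0.47) for Piezo1, each with a limma adjusted p of 0.9996. No gene of 16304 was called by limma, with 668 at an unadjusted p under 0.05, nor by voom on recovered reads, with 754. Within each sex alone, the change of Asic2 was -0.89 in males (adjusted p = 0.0092) and -0.73 in females (adjusted p = 0.013), and that of Piezo2 was -0.98 (adjusted p = 0.0058) and -0.92 (adjusted p = 0.0036) in limma fits of that sex.

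Relatives and partners of the members were taken from 6 lists set out by hand, and most that were called were higher in sacral libraries, as were most genes called. With the glial marker mean as a covariate no gene reported from these lists was called. Of 8 ASIC and degenerin channel genes only Asic1, Asic2 and Asic3 passed the filter. Asic4 had 4 to 38 reads per library, and the epithelial sodium channel subunits Scnn1a, Scnn1b and Scnn1g had at most 100, 8 and 19. Of the 5 stomatin-domain proteins 3 were tested and 1 was called, beside 30.3% of all genes called higher in sacral libraries. Stoml1, a relative of Stoml3 that also binds ASICs, was higher in sacral libraries, with levels of 2.60 ± 0.47 in lumbar and 3.18 ± 0.25 in sacral libraries (SD, n = 10 each, log2 change -0.58, SE 0.14, limma adjusted p = 0.0019, 9 of 10 donors). Stom, which binds ASIC3, gave -0.33 (SE 0.14, limma adjusted p = 0.069). It was called with the donor as a fixed effect (adjusted p = 0.047), with scaling to total reads (-0.65) and without male donor 1 (-0.39) or female donor 1 (-0.41). Stoml2, mainly a mitochondrial protein, gave -0.24 (SE 0.11, adjusted p = 0.074) and was called without the variance trend (adjusted p = 0.049), with scaling to total reads (-0.55) and without male donor 4 (-0.30). The median change of the 3 was -0.33 beside -0.11 for all genes.

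Proteins that bind ASICs at the membrane moved in both directions. Of 8 tested, 4 were called higher in sacral and 1 higher in lumbar libraries, beside 30.3% and 15.3% of all genes, and the median change of the 8 was -0.30. Magi1 changed by -0.40 (SE 0.10, limma adjusted p = 0.0024, 10 of 10 donors) and Dlg4, the synaptic scaffold PSD-95, by -0.37 (SE 0.07, adjusted p = 0.00042, 9 of 10 donors). Patj changed by -0.49 (SE 0.17, adjusted p = 0.020, 8 of 10 donors) and Pick1, which binds the tails of ASIC1 and ASIC2, by -0.39 (SE 0.15, adjusted p = 0.035, 9 of 10 donors). The call of Pick1 was lost under TMM scaling of either the deposited values or the recovered reads, without the donor block, with the donor as a fixed effect, without the filter and without any of male donors 1 and 5 and female donors 1, 3 and 5 (changes of -0.39 to -0.26, adjusted p of 0.054 to 0.091), and that of Patj without female donor 3 (-0.41, adjusted p = 0.066). Nherf1, a scaffold that links membrane proteins to actin, went the other way, from 3.14 ± 0.47 in sacral to 4.33 ± 0.37 in lumbar libraries (log2 change 1.19, SE 0.14, adjusted p = 3.7e-06, 10 of 10 donors).

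Other sensors of protons moved in both directions. Of the 9 genes reported 5 were tested, 2 of them called higher in sacral and 1 higher in lumbar libraries, beside 30.3% and 15.3% of all genes, and the other two did not pass the test. Kcnk3, a background potassium channel closed by acid, had levels of 1.73 ± 0.36 in lumbar and 3.04 ± 0.43 in sacral libraries, with the largest change toward sacral of the tested genes reported in these 6 lists (log2 change -1.31, SE 0.16, limma adjusted p = 4.1e-06, 10 of 10 donors). Trpv1, opened by heat, capsaicin and strong acid, changed by -0.96 (SE 0.15, adjusted p = 3.6e-05, 10 of 10 donors), and the sort itself used this locus. Otop1, a proton channel known from sour taste cells, was higher in lumbar libraries by 1.27 (SE 0.38, adjusted p = 0.011, 8 of 10 donors) on 12 to 150 reads.

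Among 8 PIEZO genes and regulators 7 were tested, 4 of them called higher in sacral and 1 higher in lumbar libraries, beside 30.3% and 15.3% of all genes, with a median change of -0.64. Beside Piezo2 these were Tmem150c (Tentonin 3), which affects slowly adapting mechanical currents, with a change of -0.64 (SE 0.13, limma adjusted p = 0.00036, 9 of 10 donors), Anxa6 with -0.75 (SE 0.11, adjusted p = 2.9e-05, 10 of 10 donors) and Atp2a2 with -0.72 (SE 0.10, adjusted p = 1.3e-05, 10 of 10 donors). Anxa6 binds membranes in the presence of calcium and Atp2a2 is the calcium pump of the endoplasmic reticulum, and both are abundant in many cells. Mdfic, whose product binds PIEZO channels and slows their closing, was higher in lumbar libraries, with levels of 0.16 ± 0.81 in lumbar and -0.98 ± 0.55 in sacral libraries (log2 change 1.14, SE 0.25, adjusted p = 0.0011, 10 of 10 donors). Its relative Mdfi had at most 15 reads in any library.

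Of 14 other channels gated by force, or proposed to be, 11 were tested, 7 of them called higher in sacral and 2 higher in lumbar libraries, beside 30.3% and 15.3% of all genes, with a median change of -0.44. The potassium channels Kcnk2 (TREK-1) and Kcnk4 (TRAAK), opened by membrane stretch, changed by -0.85 (SE 0.11, limma adjusted p = 8.4e-06) and -0.83 (SE 0.23, adjusted p = 0.0056), in 10 of 10 donors each. Kcnk10 (TREK-2) changed by -0.56 (SE 0.22, adjusted p = 0.042, 7 of 10 donors), a call lost without the donor block, with the donor as a fixed effect, without the filter, under median centring and TMM scaling, and without any of male donors 2, 3 and 4 and female donors 2, 3 and 5 (changes of -0.56 to -0.44, adjusted p of 0.053 to 0.13). Tmem63c, of the OSCA family, changed by -0.96 (SE 0.15, adjusted p = 3.8e-05, 10 of 10 donors). Trpa1, a receptor for irritants, changed by -0.56 (SE 0.20, adjusted p = 0.023, 8 of 10 donors), a call lost under quantile scaling and without any of male donor 5 and female donors 3 and 4 (changes of -0.53 to -0.40, adjusted p of 0.051 to 0.073). Pkd2, a polycystin channel, was higher in lumbar libraries by 1.04 (SE 0.15, adjusted p = 3.0e-05, 10 of 10 donors). Tmc1 and Tmc2, the hair cell transduction channel genes, had at most 54 and 24 reads per library and were not tested. In fits of a single sex, which hold 5 donors, Patj, Pick1, Otop1, Kcnk4, Kcnk10 and Trpa1 were called in neither sex, and Stoml1, Magi1, Dlg4 and Mdfic in males alone.

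**Figure D5:**
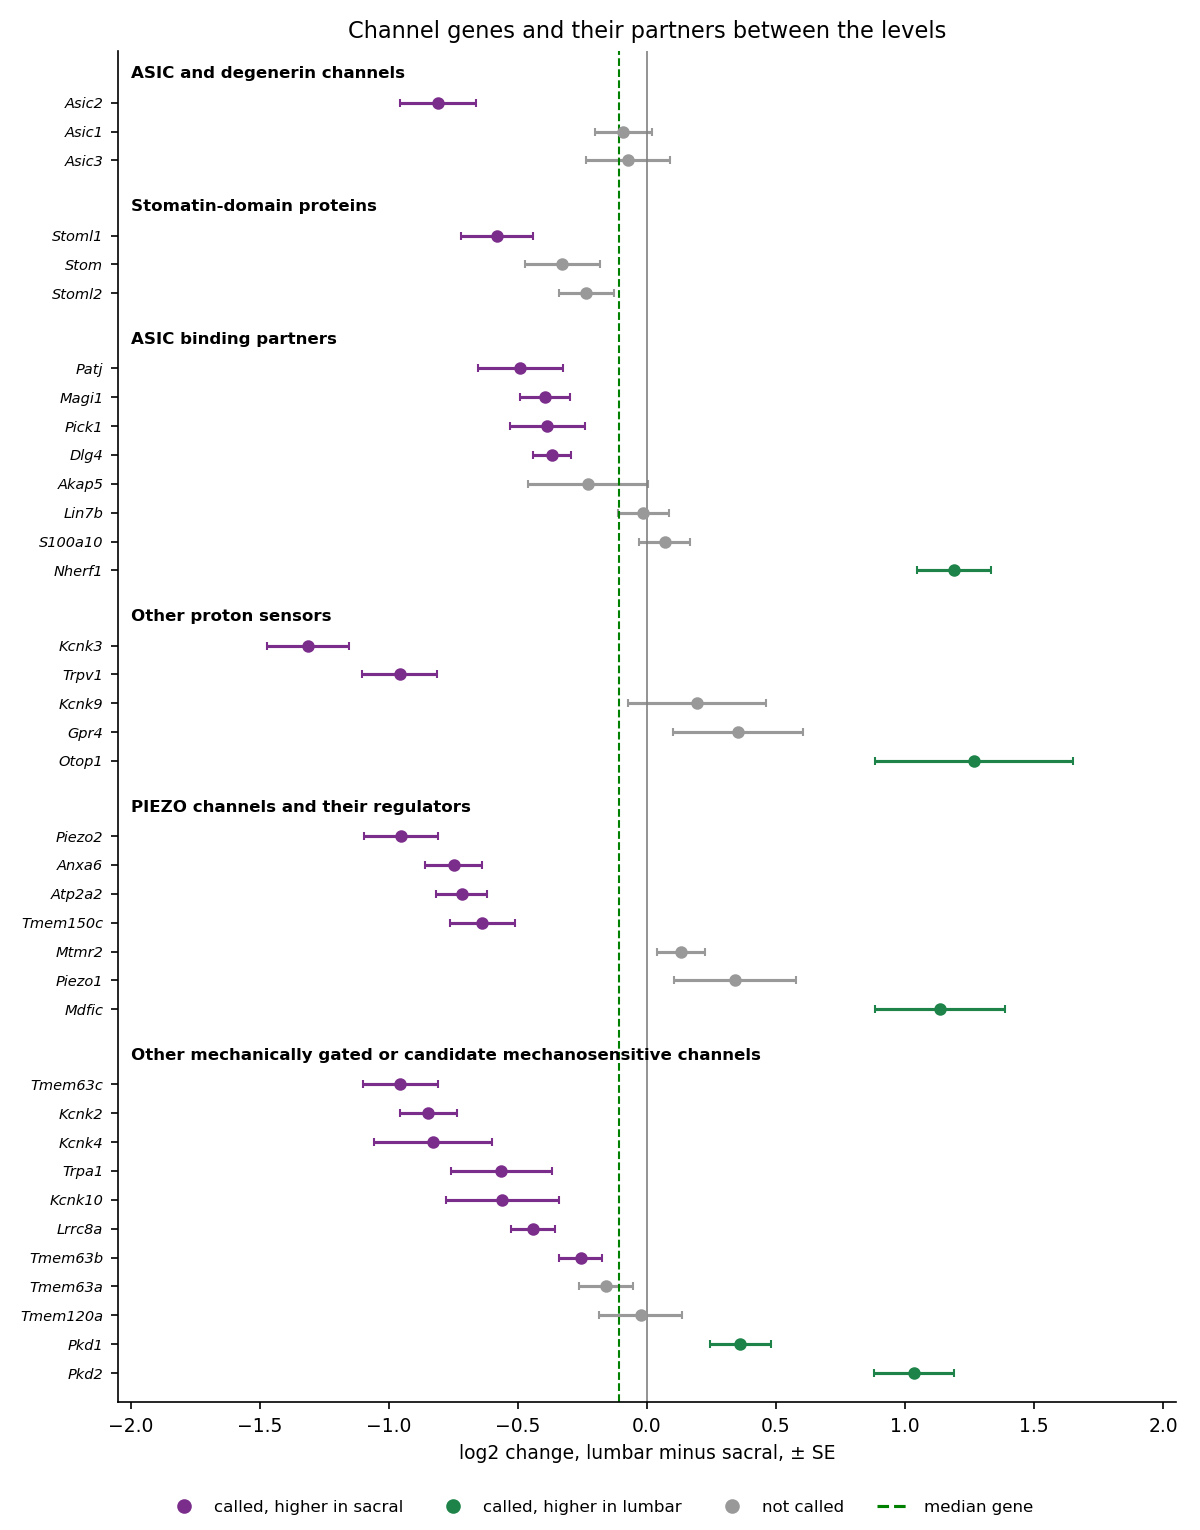
Log2 change, lumbar minus sacral (x axis, with SE), of each tested gene reported in the 6 lists of channels and partners, purple where called higher in sacral, green where called higher in lumbar and grey where not called. The dashed line marks the median of all genes tested (-0.11), and Asic2 and Piezo2 lead their own lists on the sacral side.

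Neurons with other mechanical roles were visible through their markers. Of 5 markers of C-fibre low-threshold mechanoreceptors 4 were called higher in sacral libraries, beside 30.3% of all genes, and 2 under quantile and 3 under TMM scaling. Their summed level was 71.6 to 145 RPKM (median 108) in lumbar and 123 to 226 RPKM (median 173) in sacral libraries. Of 8 markers of large myelinated mechanoreceptors and proprioceptors 7 were tested, with 3 called higher in lumbar libraries, beside 15.3% of all genes, and none in sacral ones, and their sums were 50.9 to 96.0 and 42.6 to 67 RPKM. The direction of that list was not stable. In males alone 4 were called higher in lumbar and none in sacral libraries (median change 0.55), in females alone 1 and 2 of 6 (median -0.22), and with scaling to total reads 3 and 3 of 7 (median -0.19), and the sexes were not tested against each other. With the glial marker mean as a covariate no marker of either list was called, where 151 of 16304 genes were called in all. Piezo2 is used by both kinds of neuron, and the part of either in its value was not tested.

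The genes whose values followed each member most closely over the 20 libraries were found by the root mean square (RMS) difference of centred log2 values, among the 12794 to 12795 other genes with a value in all libraries and a mean of at least 0. For Piezo2 these were Scn10a (0.15 log2 units) and Scn9a (0.15), the sodium channels Nav1.8 and Nav1.7 of nociceptors, and Mtap1a (0.16), which binds microtubules, where the RMS spread of Piezo2 itself was 0.64. For Asic2, with a spread of 0.59, they were Rasgrp1 (0.14) and Dock11 (0.14), which activate small GTPases, and N28178 (0.16). Asic1 was followed most closely by Xpo7 (0.19), Spg11 (0.20) and Usp10 (0.20), against its own spread of 0.29. Asic3, with a spread of 0.43, was followed by Srgap1 (0.22), 8430427H17Rik (0.24) and Unc13c (0.26), and Piezo1, with a spread of 0.55, by Ptbp1 (0.27), Cnp (0.28), an enzyme of myelin, and BC006779 (0.28). The likeness was therefore close for Piezo2 and Asic2 and loose for Asic1, Asic3 and Piezo1 relative to their own spread. Values were centred over all 20 libraries, so the level difference stayed in them. The genes nearest to Piezo2 changed by -1.06 to -0.94, lumbar minus sacral, and those nearest to Asic2 by -0.88 to -0.70. Likeness within a level was not tested.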

How the data were processed

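Trpv1 neurons of lumbar and sacral DRG were sorted by reporter fluorescence, and their amplified RNA was sequenced. The authors aligned reads to mm9 with Subread (versions 1.18 and 1.20.6 in the submitters' processing notes), counted those that mapped uniquely against Ensembl genes, and, after voom (limma 3.26.9) and TMM (edgeR 3.12.1), deposited values as log2 RPKM. All libraries share a median of 0.93, a step the sources used here do not explain. Samples were grouped by their labels, with donors paired by shared animal numbers. Deviations from group means correlated at 0.18 on average within donors (10 pairs, 0.04 to 0.30) and at -0.04 between donors of a sex.

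Genes were tested on the deposited values with R 4.3.3, limma 3.58.1 and, for the donor block, statmod 1.5.0 (4 group means, donor correlation 0.17 from duplicateCorrelation, a mean-variance trend, Benjamini-Hochberg, adjusted p of at most 0.05), where a group mean exceeded -1 over at least 3 values. Empty cells stayed empty. The fit was tested on simulated data. Whole reads were recovered for 99.3% of 28233 genes with a value, within 0.01 read, for depth and for voom alternatives, with TMM written out by hand. Donor tests were exact, and correlations used 100000 permutations (Python 3.11.15, numpy 2.4.6, scipy 1.17.1, pandas 2.3.3, matplotlib 3.10.9). Positions are from the annotation of NCBIM37, matched for 37205 of 37620 genes. Depth floors cover counting error only.

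Members and lists were chosen with earlier results of these data known. The text names the 6 members, in each of 6 lists of relatives and partners every called gene or the 6 with the largest change, the 3 genes most like each member, and markers. Genes outside this rule were named after their values were seen. In the list of other proton sensors 1 called gene is not reported here and is left out of that list's counts, and no median is given for the rest. Alternatives were other filters, pseudocounts of 1 and 0.1, scalings, moderation, weights, donor models, donors left out, each sex alone, separate fits by level, an adjusted p of 0.01 and the glial mean as a covariate.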

Additional observations from a re-analysis of the deposited data

How the results depend on the processing

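Asic2 and Piezo2 kept their direction and their call in the level comparison under every alternative limma fit except the glial covariate (-0.14 and -0.23). They lay between -1.13 and -0.65 and between -1.28 and -0.76 under other scalings, and between -0.90 and -0.71 and between -1.03 and -0.90 with a donor left out. Without the replicate block the number of genes called was 6577, with the donor as a fixed effect 7151, and the block changed no call of a member. The level comparison called 4644 genes in males alone, 3671 in females alone and 151 with the glial covariate. The median change of all genes was -0.11 as deposited, -0.007 with TMM factors and -0.43 with voom scaled to total reads. The split of calls, 4947 higher in sacral and 2489 higher in lumbar, became 3432 and 3063 under quantile scaling, 3675 and 3355 with TMM factors, 3544 and 3481 with voom and TMM, and 9533 and 1421 with total reads.

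Asic1 changed by 0.031 under quantile scaling, 0.011 with TMM factors, 0.026 with voom and TMM, -0.41 with total reads (then called, adjusted p = 0.0035), 0.20 with the glial covariate and 0.44 as a ratio to nociceptor markers. Asic3 changed by 0.072, 0.028, 0.058, -0.39 (called, adjusted p = 0.046), 0.41 and 0.46 under the same settings in that order, and by -0.14 to 0.014 with a donor left out. Piezo1 changed by -0.80 with the glial covariate and by 0.87 as a ratio to nociceptor markers (exact permutation test, unadjusted p = 0.0039). At 0.34 it passed the unadjusted exact permutation test over donors, and neither of these 2 tests is a call over all genes. With the glial covariate Patj changed by 0.13, Mdfic by -0.018 and Trpa1 by 0.25. The causes were not tested.

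Sex calls in lumbar libraries numbered 4 at an adjusted p of 0.01, 12 with pseudocount 1, 11 with TMM factors, 4 without the trend, 3 in a separate fit, 4 with the glial covariate and 3 to 9 with a donor left out. In sacral libraries they numbered 3 at 0.01, 27 and 13 with pseudocounts 1 and 0.1, 36 with voom and TMM, 24 with total reads, 10 with empty cells set to 0.5 reads, 27 with array weights, 18 in a separate fit and 3 to 9 with a donor left out. No member was among them. Female minus male, Piezo1 turned to 0.25 in lumbar and 0.14 in sacral libraries with the glial covariate.

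Small interactions turned sign. With total reads Asic1 gave 0.014 and Asic3 0.034, with array weights Piezo1 gave -0.066, and with a donor left out the range was -0.21 to 0.012 for Asic1, -0.035 to 0.33 for Asic2, -0.24 to 0.062 for Asic3 and -0.094 to 0.17 for Piezo2.

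Between members, Asic1 against Piezo1 was lost and Asic2 against Stoml3 turned to 0.069 without the replicate block (exact permutation of libraries), while with pseudocount 1 Stoml3 pairs with Asic2 (-0.58), Piezo1 (0.27) and Piezo2 (-0.75) were called. With a donor left out the ranges were -0.10 to 0.088 for Asic1 against Asic3, -0.018 to 0.87 for Asic1 against Stoml3, -0.54 to 0.26 for Asic2 against Stoml3 and -0.68 to 0.20 for Piezo2 against Stoml3. Low reads of Stoml3 and Piezo1 limit what can be said of them.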
